A study of Mus musculus with 12 samples.

Results

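The genes described here encode the proteins of synaptic vesicles and of the SNARE machinery that fuses vesicles with their target membrane, in the prefrontal cortex (PFC) of mice that had received repeated cocaine or saline. They were chosen by name, as synaptotagmins (Syt), synapsins (Syn), vesicle-associated membrane proteins (Vamp), syntaxins (Stx), syntaxin-binding proteins (Stxbp), complexins (Cplx), SNAP proteins, Rab3 GTPases and SV2 proteins, whatever their values. Of 64 names of this kind, 59 carried the status OK, which marks a locus with enough reads to be compared, at one or more time points: 59 of 14809 gene names at 2 h, 59 of 15288 at 24 h and 58 of 15236 at 7 d. The other 5 names, Cplx4, Stx11, Stx19, Syt8 and Syt10, never had this status, and Syt1 lacked it at 7 d.

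The animals were C57BL/6 mice (C57BL/6 J and male in the study's methods) aged 10 weeks, and the tissue was the PFC, sampled 2 h, 24 h or 7 d after the last of a series of daily injections of cocaine or, in the control groups, of saline. A group comprised 2 sequenced libraries (12 in total), each made from 5 pooled mice, so that differences between single animals were not measured. The deposited tables hold 1 FPKM per gene and group (fragments scaled to transcript length and to the mapped fragments of a library), pooled over the 2 libraries. There is therefore no spread between libraries, the depth is unknown from the tables, and a difference at 1 time point has no replicate check here. The authors' own test columns were not used.

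A synaptic vesicle fuses when the vesicle SNARE synaptobrevin-2 (Vamp2) zippers up with the target-membrane SNAREs syntaxin-1A (Stx1a) and SNAP-25 (Snap25). Some, but not all, syntaxin-binding proteins assist this assembly, complexins hold the complex ready and synaptotagmins such as Syt1 sense calcium and trigger release. Synapsins tether vesicles in reserve, Rab3 GTPases act in docking and SV2 proteins are vesicle membrane glycoproteins. Other family members serve endosomes, lysosomes, the Golgi or secretory granules, in neurons and in other cells of the cortex, and in bulk tissue fewer cells of a type and less RNA per cell cannot be told apart.

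Promoter sequences from RefSeq on the mouse build GRCm38.p6 were found for 46 of the 59 genes, as the 250 bases before the annotated start, and 4 short motifs were searched on both strands, with overlapping matches allowed. They are shown for a pair of genes whose cocaine FPKM lay above every saline FPKM (Rab3d, Sv2c), for a pair that lay below (Stx8, Stxbp2), and for Syn1, the 1 gene with a cyclic AMP response element (CRE). Capitals mark the GC box (GGGCGG, or CCGCCC on the other strand) in Rab3d and Sv2c, the E-box (CACGTG) in Stxbp2 and the CRE (TGACGTCA) in Syn1, and the Stx8 window held none of the 4.
Rab3d, chr9:21918184-21918433, minus strand: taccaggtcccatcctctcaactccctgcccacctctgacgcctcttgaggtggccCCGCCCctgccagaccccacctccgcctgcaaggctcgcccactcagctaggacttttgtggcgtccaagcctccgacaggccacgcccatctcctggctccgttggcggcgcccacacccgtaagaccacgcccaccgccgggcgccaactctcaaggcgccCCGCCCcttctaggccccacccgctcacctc
Sv2c, chr13:96132578-96132827, minus strand: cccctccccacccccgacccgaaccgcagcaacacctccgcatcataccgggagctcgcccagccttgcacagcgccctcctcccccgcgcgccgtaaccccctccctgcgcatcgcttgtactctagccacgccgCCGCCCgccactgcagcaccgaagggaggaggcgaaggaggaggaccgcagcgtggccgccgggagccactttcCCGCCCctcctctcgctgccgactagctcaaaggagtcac
Stx8, chr11:67966208-67966457, plus strand: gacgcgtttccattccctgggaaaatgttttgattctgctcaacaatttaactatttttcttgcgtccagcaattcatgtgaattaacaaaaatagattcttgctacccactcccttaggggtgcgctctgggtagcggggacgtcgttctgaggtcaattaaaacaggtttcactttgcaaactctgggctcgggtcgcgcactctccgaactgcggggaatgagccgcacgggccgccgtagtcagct
Stxbp2, chr8:3630859-3631108, plus strand: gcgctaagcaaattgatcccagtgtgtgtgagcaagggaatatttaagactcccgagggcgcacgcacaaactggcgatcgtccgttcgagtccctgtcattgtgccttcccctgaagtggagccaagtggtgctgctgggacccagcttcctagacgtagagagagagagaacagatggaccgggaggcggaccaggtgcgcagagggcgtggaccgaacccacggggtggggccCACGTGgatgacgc
Syn1, chrX:20920919-20921168, minus strand: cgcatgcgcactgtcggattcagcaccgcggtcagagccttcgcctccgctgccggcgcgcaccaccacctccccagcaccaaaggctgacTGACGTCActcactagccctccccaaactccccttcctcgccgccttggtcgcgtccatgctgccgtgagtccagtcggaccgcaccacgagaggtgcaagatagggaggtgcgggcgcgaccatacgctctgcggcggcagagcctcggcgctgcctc

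Some genes have several annotated starts, and a gene was counted where any of its windows held the motif. The GC box was found for 33 of the 46 genes (71.7%), against 45.8% of 17491 protein-coding genes, and the median GC content of the windows was 61.2% against 55.6%. The E-box was found for 7 genes (15.2% against 7.61%), namely Cplx3, Stx6, Stxbp2, Sv2b, Syt6, Syt14 and Vamp4. The CRE was found for 1 gene, Syn1 (2.17% against 2.2%), and the AP-1 motif (TGANTCA), which Fos-containing dimers bind, for 1 gene, Syt2 (2.17% against 7.19%). These matches describe letters in a window and not binding. Of the genes whose cocaine FPKM lay above every saline FPKM, Rab3d, Sv2c and Syt14 had the GC box. Of those that lay below, Rab3b, Stx4a and Syt6 had it, Stx8, Stxbp2 and Stxbp6 did not, and Snap25 had no window. A link between motif and direction was not tested.

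The genes of the core release machinery were among the most abundant. Snap25 led with a median of 1466 FPKM over the 6 groups (range 1385 to 1581), followed by Vamp2 at 466 FPKM (438 to 496), Rab3a at 359 FPKM (327 to 376) and Syt1 at 331 FPKM over its 4 values (303 to 341). The ranges of Snap25 and Vamp2 did not overlap with those of the genes next below them, whereas Syn1 (213 FPKM), Cplx1 (213 FPKM) and Cplx2 (210 FPKM) could not be ranked among themselves. In all, 13 genes had a median of at least 100 FPKM, 27 lay from 10 to 100, 17 from 1 to 10 and 2, Syt6 and Syt15, under 1 FPKM, and the ranges of 43 of the 58 pairs of neighbours in this order overlapped. Since the 3 tables were made separately, these levels compare genes within a table more safely than 1 gene between time points.

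Within some families a single gene carried most of the FPKM. In the saline group at 2 h Snap25 made up 87.7% of the summed FPKM of the SNAP family, Rab3a 86.0% of the Rab3 GTPases and Vamp2 81.4% of the vesicle SNAREs. The leading share was smaller in the larger families, with Stx1a at 31.7% of the syntaxins and Syt1 at 41.7% of the synaptotagmins. The synapsins were shared mainly between Syn1 (227 FPKM) and Syn2 (159 FPKM), with Syn3 at 4.07 FPKM, and the complexins between Cplx1 (202 FPKM) and Cplx2 (202 FPKM), with Cplx3 at 2.92 FPKM. Genes of endosomes and the Golgi were spread over the order, with Stx7 at a median of 52.0 FPKM, Vamp4 at 35.9 and Vamp8 at 11.3, and Stxbp2 (5.00 FPKM), Rab3d (2.94 FPKM) and Vamp5 (1.24 FPKM) stood among the lower genes.

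**Figure D1:**
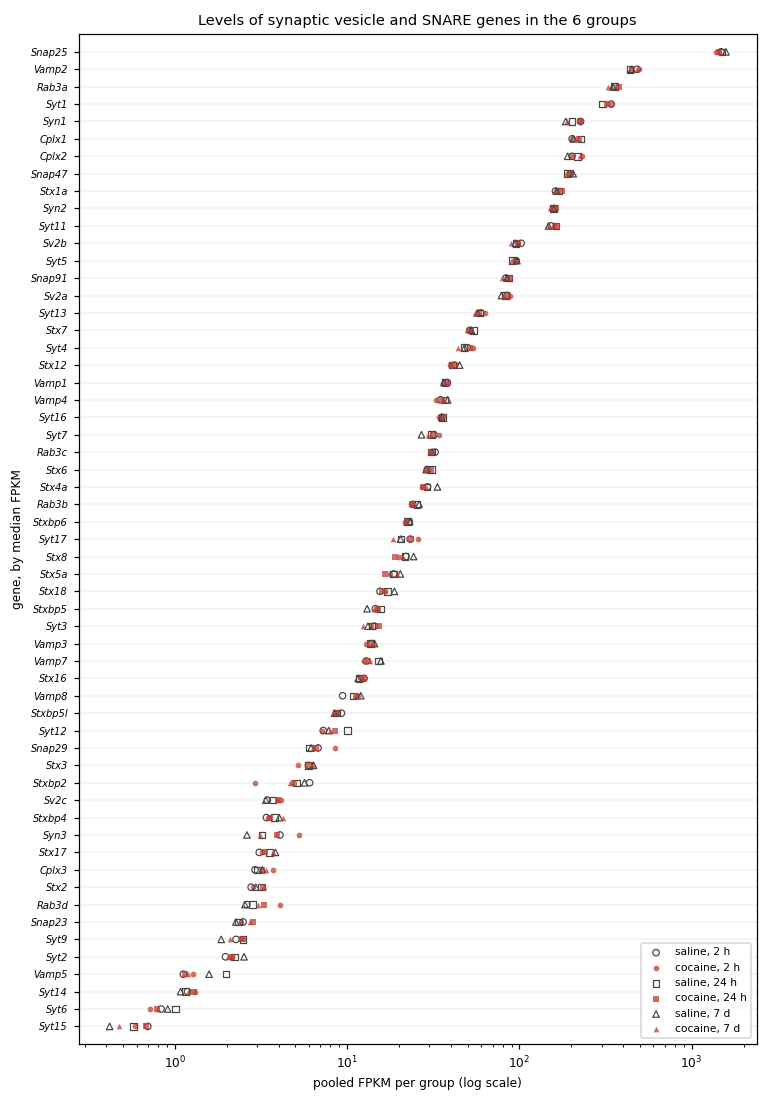
Pooled FPKM of the synaptic genes reported by name (log scale) in the 6 groups, ordered by the median, with open symbols for saline, filled symbols for cocaine and shapes for the time points; there are no error bars because each group has 1 pooled value. The levels run from 1466 FPKM for Snap25 to 0.583 FPKM for Syt15, and for most genes the 6 symbols lie on top of each other.

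The first question was which of these genes differed between cocaine and saline at each time point. The difference is given as log2 of (cocaine FPKM + 1) over (saline FPKM + 1), and a gene was counted from a size of 0.3 (1.23-fold) upward. Where values stand as pairs below, saline is named before cocaine. At 2 h 3 of 59 genes (5.08%) reached this size, against 11.7% of all 16012 rows: 2 were higher, where 6.31% of all rows were, and 1 was lower, where 5.4% were. At 24 h 1 of 59 genes reached it, in the lower direction (1.69%, against 3.66% of the 17143 rows lower, 3.74% higher and 7.4% in either direction). At 7 d 0 of 58 did, against 4.79% of the 16769 rows higher, 7.38% lower and 12.2% in either direction. From a size of 0.2, genes in the 3 tables numbered 7 of 59 (11.9%, against 23.5% of all rows), 4 of 59 (6.78%, against 15.9%) and 8 of 58 (13.8%, against 26.1%). From 0.5 they numbered 1, 0 and 0, against 4.08%, 3.09% and 4.16% of all rows. None of these counts was tested here, because each group has 1 FPKM value and the authors' own p and q values were not used.

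All 4 genes that reached the size limit had low levels. Stxbp2 encodes Munc18-2, a syntaxin-binding protein known from degranulating immune and secretory cells, and its FPKM at 2 h was 6.05 with saline and 2.92 with cocaine, a log2 difference of -0.85. At 24 h it was 5.08 with saline and 4.91 with cocaine, and at 7 d 5.66 and 4.64. The 2 h cocaine group thus stood apart from the other 5 groups, which lay between 4.64 and 6.05 FPKM.

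Rab3d, a Rab3 GTPase best known from secretory granules of exocrine glands, had 2.62 FPKM with saline and 4.06 with cocaine at 2 h (log2 difference 0.48), 2.83 against 3.31 at 24 h (0.17), and 2.55 against 3.06 at 7 d (0.19). The 3 cocaine values lay above the 3 saline values, with the highest at 2 h. Syn3, the third synapsin, had 4.07 FPKM with saline and 5.28 with cocaine at 2 h (0.31), 3.205 against 3.90 at 24 h (0.22), and 2.62 against 3.12 at 7 d (0.19). Here cocaine lay above saline at every time point, but the groups overlapped across time points, because the saline level itself ran from 2.62 to 4.07 FPKM.

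The Syn3 locus encloses Timp3, the gene of a tissue inhibitor of metalloproteinases, and how reads of both genes were told apart is not given in the sources used here. Timp3 had 21.3 FPKM with saline and 26.7 with cocaine at 2 h, 21.7 against 21.1 at 24 h, and 17.3 against 21.0 at 7 d. It was higher in cocaine at 2 h and 7 d, as Syn3 was, but not at 24 h, and its part in the Syn3 values was not tested.

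Vamp5, a vesicle SNARE known from muscle, had 1.98 FPKM with saline and 1.15 with cocaine at 24 h, a log2 difference of -0.48. Its FPKM was 1.12 with saline and 1.28 with cocaine at 2 h, and 1.58 against 1.20 at 7 d. The saline values alone ran from 1.12 to 1.98 FPKM, so that the difference at 24 h lay within the range of saline between time points.

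The genes nearest to the limit were likewise mostly of low level. Snap29, a SNAP protein of autophagosome fusion, missed it at 2 h with a log2 difference of 0.297 (6.78 FPKM in saline, 8.56 in cocaine), and Vamp8, a vesicle SNARE of endosomes, with 0.27 (9.42 and 11.5 FPKM). At 24 h the nearest were Syn3 at 0.22 and Syt12 at -0.22 (10.0 FPKM in saline, 8.50 in cocaine). At 7 d they were Cplx2 at 0.24 and Stxbp2 at -0.24.

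The core release genes differed little between cocaine and saline. Vamp2 had 481 FPKM with saline and 496 with cocaine at 2 h, 438 against 453 at 24 h, and 448 against 480.3 at 7 d, with log2 differences of 0.04, 0.05 and 0.10. Snap25 had 1479 against 1385 FPKM at 2 h, 1496 against 1442 at 24 h, and 1581 against 1453 at 7 d, with log2 differences of -0.10, -0.05 and -0.12. Thus the partners of the same complex lay on opposite sides of saline at all 3 time points, Vamp2 above and Snap25 below, each by less than the size limit.

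Stx1a, encoding the syntaxin partner, had 162 FPKM with saline and 166 with cocaine at 2 h, 169.9 against 177 at 24 h, and 164 against 161 at 7 d. Stx4a, a syntaxin of the plasma membrane, had its largest difference at 7 d (33.4 FPKM in saline, 28.5 in cocaine, log2 difference -0.22).

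Syt1, the calcium sensor, had 341 FPKM in both groups at 2 h, and 303 with saline and 322 with cocaine at 24 h, and at 7 d it was listed at 315 and 301 FPKM with the status FAIL and was not used. Its paralogs Syt4 and Syt17 were above saline at 2 h and 24 h and below it at 7 d: Syt4 by log2 differences of 0.09, 0.12 and -0.12, and Syt17, at 18.5 to 25.8 FPKM, by 0.14, 0.18 and -0.14. Syt7, a slower sensor of high calcium affinity, was above saline each time, by 0.10, 0.03 and 0.12.

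Cplx2 gave the largest difference among the 13 genes of at least 100 FPKM. It had 202 FPKM with saline and 231 with cocaine at 2 h, 217 against 203 at 24 h, and 190.4 against 226 at 7 d, with log2 differences of 0.19, -0.10 and 0.24. Each of 5 astrocyte markers had the same order of signs. Their summed FPKM was 494 against 555 at 2 h, 569 against 513 at 24 h and 471 against 563 at 7 d. The medians of 4 microglia markers (0.14, -0.08 and 0.13) and 3 endothelial markers (0.13, -0.04 and 0.17) had this order as well, though not every marker did. Those of general neuron markers (-0.0043, -0.05 and 0.08) and oligodendrocyte markers (-0.10, -0.14 and 0.0016) did not. Nor did the medians of inhibitory-neuron markers (-0.03, 0.0047 and -0.0010). The part of these cell types in the Cplx2 values was not tested. Of 3 excitatory-neuron markers, Camk2a had this order too (0.16, -0.11 and 0.24), whereas Slc17a7 was above saline each time (0.03, 0.03 and 0.05) and Neurod6 was not in this order (0.11, 0.14 and -0.39). Cplx1 differed by 0.0021, -0.04 and 0.09.

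Among the synapsins, Syn1 had 227 FPKM with saline and 226 with cocaine at 2 h, 201 against 225 at 24 h, and 186 against 189 at 7 d. Its largest difference, 0.16 at 24 h, was smaller than the range of its saline level over the time points. Syn2 had 159 against 155 FPKM at 2 h, 157 against 162 at 24 h, and 159 against 151 at 7 d.

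Rab3a had 362 FPKM with saline and 364 with cocaine at 2 h, 356 against 376 at 24 h, and 348 against 327 at 7 d. The SV2 proteins had log2 differences of -0.05, 0.04 and -0.09 for Sv2b and of 0.06, 0.06 and 0.05 for Sv2a, which ran from 78.6 to 88.3 FPKM. Snap91, a clathrin adaptor of endocytosis that is no SNARE and was taken in by its name, differed by 0.02, 0.04 and -0.09 at 83.5, 86.2 and 84.5 FPKM in saline.

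**Figure D2:**
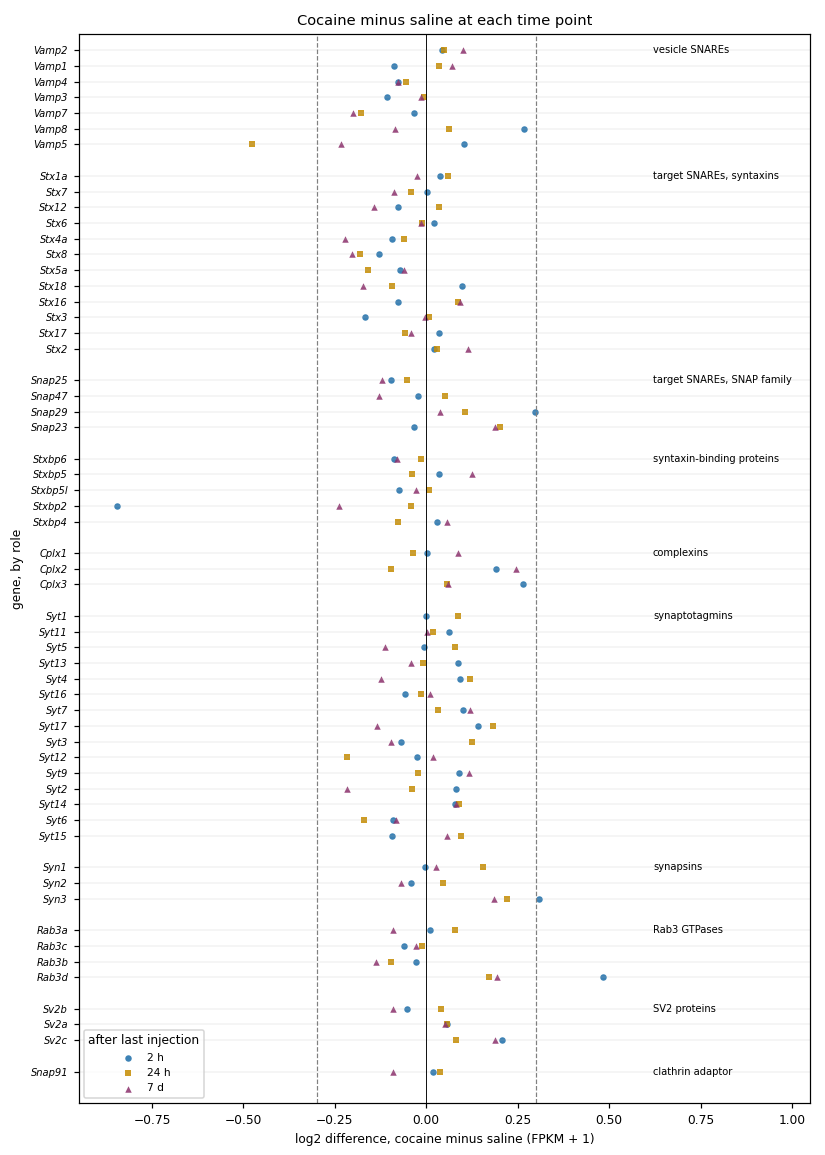
Log2 difference between cocaine and saline (FPKM + 1) of the genes reported by name at 2 h (circles), 24 h (squares) and 7 d (triangles), grouped by role and ordered by level within a role; dashed lines mark the size limit of 0.3, and there are no error bars because each group has 1 pooled value. Only Stxbp2, Rab3d and Syn3 at 2 h and Vamp5 at 24 h lie past the lines.

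As a group the genes were centred near 0. Their median log2 differences at the 3 successive time points were 0.0021, 0.02 and -0.03, beside 0.01, 0.0051 and -0.0048 over all rows, with 31 of 59 (52.5%), 33 of 59 (55.9%) and 25 of 58 (43.1%) genes above 0, beside 54.3%, 51.9% and 48.9% of all rows. The median size of the difference, without its sign, was 0.08, 0.06 and 0.09, against 0.10, 0.08 and 0.11 over all rows. The synaptic genes had higher levels, with median saline FPKM of 23.3, 22.4 and 23.7 against 6.09, 5.42 and 5.47 over all rows. At a mean of at least 10 FPKM the median sizes were 0.06, 0.05 and 0.09, against 0.07, 0.06 and 0.11. Below saline were 45.7%, 48.1% and 51.1% of all rows at the successive time points. By role, genes below saline numbered 4, 4 and 5 of 7 vesicle SNAREs, 7, 7 and 10 of 13 syntaxins, 3, 1 and 2 of 4 SNAP proteins, and 3, 4 and 3 of 6 syntaxin-binding proteins. They numbered 0, 2 and 0 of 3 complexins, 6 and 6 of 15 and then 7 of 14 synaptotagmins, 2, 0 and 1 of 3 synapsins, 2, 2 and 3 of 4 Rab3 GTPases, and 1, 0 and 1 of 3 SV2 proteins.

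Since all 4 genes past the limit had low levels, the sizes were also compared at a mean of at least 10 FPKM. This level was chosen after the data were seen and left out those 4 genes, so the counts of 0 at a size of 0.3 were fixed in advance. None of 40, 40 and 39 such genes reached 0.3 at 2 h, 24 h and 7 d, against 6.11%, 4.31% and 11.0% of all rows of that level. A difference of at least 0.1 was found in 12.5%, 17.5% and 41.0% of the synaptic genes and in 38.4%, 29.6% and 53.9% of all rows.

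**Figure D3:**
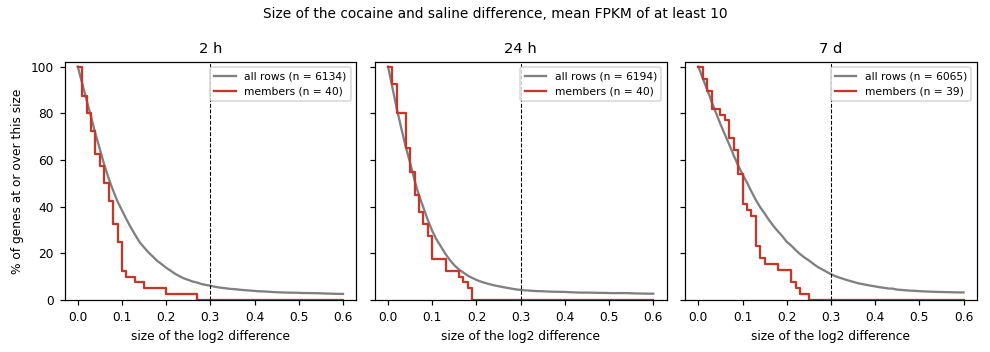
Percent of genes whose log2 difference between cocaine and saline, without its sign, was at or over the size on the horizontal axis, for the synaptic genes (red, n = 40, 40 and 39) and all rows (grey) with a mean of at least 10 FPKM at 2 h, 24 h and 7 d; the dashed line marks 0.3. The red line reaches 0 before 0.3 at each time point, while the grey line stands there at 6.11%, 4.31% and 11.0%. The level of 10 FPKM was chosen after the data were seen and leaves out the 4 genes past 0.3.

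The second question was whether a gene differed in the same direction at all 3 time points. Of the 58 genes with 6 values, 12 were above saline each time (20.7%, against 18.2% of 14164 genes) and 12 below each time (20.7%, against 14.4%). Those above included Cplx3, Rab3d, Snap29, Stx2, Sv2a, Sv2c, Syn3, Syt7, Syt11, Syt14 and Vamp2. The 12 below were Rab3b, Rab3c, Snap25, Stx4a, Stx5a, Stx8, Stxbp2, Stxbp6, Syt6, Vamp3, Vamp4 and Vamp7.

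In a smaller set the cocaine and saline values did not overlap across time points, a comparison that sets levels of separately made tables side by side. All 3 cocaine values lay above all 3 saline values for Rab3d, Sv2c and Syt14 (3 of 58, 5.17%, against 3.54% of all genes). They lay below for Rab3b, Snap25, Stx4a, Stx8, Stxbp2, Stxbp6 and Syt6 (7 of 58, 12.1%, against 4.59%). With the genes under a mean of 1 FPKM left out these counts were 3 of 56 (5.36%, against 3.43%) and 6 of 56 (10.7%, against 4.51%).

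Stx8, a syntaxin of late endosomes, was among those below. Its FPKM was 22.0 with saline and 20.005 with cocaine at 2 h, 21.7 against 19.0 at 24 h, and 24.3 against 21.0 at 7 d, with log2 differences of -0.13, -0.18 and -0.20. Its endosomal partner Vamp7 differed by -0.03, -0.18 and -0.20, at 12.6 to 15.7 FPKM, and overlapped between the groups. Stx7 and Vamp8, also of endosomes, differed by 0.0024, -0.04 and -0.09 and by 0.27, 0.06 and -0.09. Sv2c, the SV2 protein typical of the basal ganglia, had 3.44 FPKM with saline and 4.12 with cocaine at 2 h, 3.68 against 3.95 at 24 h, and 3.37 against 3.99 at 7 d, with log2 differences of 0.21, 0.08 and 0.19.

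Sv2c is abundant in the striatum, which lies near the PFC. Of 7 striatal markers 6 had the status OK, Drd2 being the exception, and their summed FPKM was 149 with saline and 157 with cocaine at 2 h, 137 against 143 at 24 h, and 140 against 143 at 7 d. The sum, most of it Ppp1r1b and Penk, was higher in cocaine each time, but the markers did not move as 1 group: 3, 5 and 4 of the 6 were above saline at the successive time points. Rgs9 was below saline each time (-0.28, -0.10 and -0.26), and Tac1 was at -0.16, 0.00058 and -0.58. The part of striatal tissue in the Sv2c values was not tested. The 3 olfactory bulb markers did not have the status OK in any table, and 5 of 5 inhibitory-neuron markers did in every table. The latter summed to 389 against 368 FPKM at 2 h, 452 against 442 at 24 h and 425 against 393 at 7 d. Sst carried most of each sum, at 238 against 218, 294 against 282 and 262 against 229 FPKM in time order. Gad1 was above saline each time (0.04, 0.03 and 0.06), and Gad2, Slc32a1 and Pvalb varied in sign. Of 5 choroid plexus markers 2 had the status OK at 2 h and 24 h, with sums of 3.44 against 2.38 FPKM and 4.03 against 3.44. At 7 d 4 had it, with a sum of 3.36 against 9.53 FPKM. Ttr alone made the difference at 7 d (0.284 against 6.54 FPKM), while Folr1 was lower in cocaine (0.668 against 0.290 FPKM).

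From the pooled values a single test over the time points was possible. limma was fitted to log2(FPKM + 1) of the 6 groups with the time point as a block, over 12957 genes with a mean of at least 1 FPKM, 56 of them synaptic. The error in this fit draws on the spread of a gene's difference between time points and on that of other genes of like level. A difference that is real but changes with time thus counts as error. No synaptic gene passed an adjusted p of 0.05, and of all genes 1 did (0.00772%), the small RNA gene Rny3, named here because of this result. At an unadjusted p under 0.05 there were 4 synaptic genes (7.14%, against 8.41% of all genes).

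These 4 were Syn3, Stx8, Rab3d and Sv2c. The fitted log2 difference of Syn3 was 0.24 with an SE of 0.06 (limma, adjusted p = 0.59). That of Stx8 was -0.17 with an SE of 0.04 (limma, adjusted p = 0.59). Rab3d had 0.28 with an SE of 0.09 (limma, adjusted p = 0.59), and Sv2c 0.16 with an SE of 0.06 (limma, adjusted p = 0.59).

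The same test left Egr1, Fos, Arc, Dusp6 and Nr4a1, genes that neuronal activity induces, at an adjusted p of 0.59 too, although each was past the size limit at all 3 time points and Arc had a fitted log2 difference of 2.12 with an SE of 0.47. A missed threshold in this fit therefore does not show that a gene did not differ.

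Between the separately made tables, saline levels varied by about as much as cocaine differed from saline within them. The median range of the 3 saline values was 0.13 on the log2 scale for the synaptic genes and 0.19 for all genes, and the median of the largest difference between cocaine and saline was 0.12 and 0.18. The largest difference was over the range of saline for 30 of 58 synaptic genes (51.7%, against 45.5% of all genes).

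At 7 d the difference followed transcript length. Over all genes of at least 1 FPKM the Spearman correlation across genes between longest transcript and log2 difference was 0.16, 0.09 and 0.49 in time order, and among the synaptic genes it was 0.10 (n = 58), -0.12 (n = 58) and 0.34 (n = 57). Genes share libraries and are not replicates. Of the 29 synaptic genes with shorter transcripts 20 were below saline at 7 d, with a median of -0.08, and of the 28 with longer ones 12, with a median of 0.01. These shares, 69.0% and 42.9%, stood beside 69.0% and 33.0% of all genes, with medians of -0.07 and 0.05.

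With the trend over length taken out, 1 synaptic gene reached the limit at 7 d, Syt2, a synaptotagmin of fast-spiking neurons. It came to -0.32, from -0.22 before (2.52 FPKM in saline, 2.03 in cocaine). At 7 d the Syt2 locus overlapped Gm22232 (192 FPKM in saline, 133 in cocaine) and Ppp1r12b (8.60 and 11.5 FPKM). Their part in the Syt2 values was not tested. Syn3 at 2 h came to 0.27 and was then under the limit. Of the genes below saline each time, Vamp3 came to 0.05 and Stx5a to 0 at 7 d. Snap25 and Stx4a stayed below, at -0.06 and -0.12. Of those above each time, Syt11 came to -0.07 at 7 d. The other genes named in the 2 lists kept their direction, apart from Vamp7, for which no length was found. The counts by role were not corrected for length.

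**Figure D4:**
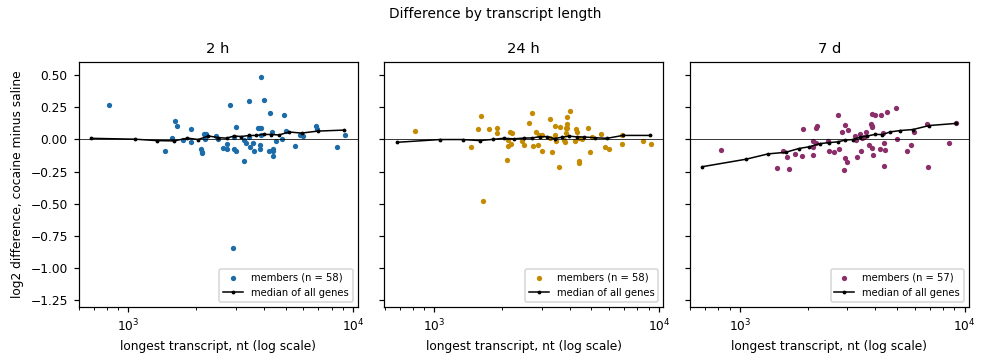
Log2 difference between cocaine and saline of the synaptic genes (points) against the length of the longest transcript in nucleotides (log scale) at 2 h, 24 h and 7 d, with the median of all genes in 20 groups of length (black line). The black line climbs with length at 7 d, and 20 of the 29 synaptic genes with shorter transcripts (69.0%) lie below 0 there, as do 69.0% of all genes with shorter transcripts.

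The rest of the release machinery was given by 47 further genes, among them the active zone proteins Rims1, Unc13a and Bsn, the SNARE-disassembling ATPase Nsf, the vesicle protein Syp and genes of endocytosis, and all 47 had the status OK at each time point. At 2 h 1 of 47 was past the limit, Doc2b, a calcium-binding protein of the vesicle cycle, at 0.31 (1.81 FPKM in saline, 2.49 in cocaine), and at 24 h and 7 d 0 were. Their median log2 differences were -0.01, 0.05 and -0.03. Bsn, encoding the scaffold bassoon, differed by 0.25, 0.05 and 0.23, and Syp, encoding synaptophysin, by -0.01, 0.20 and -0.04.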

How the data were processed

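RNA from PFC was sequenced in 12 libraries, 2 for each of 6 groups. Per the submitters' processing notes, base calling used CASAVA 1.8.2, trimming Trimmomatic 0.32, alignment TopHat2 2.0.12 and quantification Cufflinks 2.2.1 with Cuffdiff; the study's methods name another trimming tool and the build mm9, whereas the notes name GRCm38, which 99.9% of 12972 gene loci matched. The authors deposited 1 table per time point with a pooled FPKM for each group. The tables also hold the authors' fold change, test statistic, p and q columns, which were not used. Columns were assigned to saline and cocaine from the headings of the study's supplementary tables, because the sample names in the deposited files are ambiguous. Whether counting used strand is not given in the sources used here, so overlapping and antisense genes cannot be told apart (18 genes here had such a neighbour).

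Members were taken by a pattern of names, whatever their values. The pattern and the gene lists were drawn up with earlier results of these data known. Where a name stood on several rows the longest locus was used. Differences are log2(FPKM + 1), cocaine minus saline, counted from 0.3. Named genes were all members past 0.3, the members just inside and outside it, the leading gene of each role and the core release genes; others were named after their values were seen. limma 3.58.1 (R 4.3.3, empirical Bayes with trend, Benjamini-Hochberg adjustment) was fitted over all genes and tested on simulated data. Python 3.11.15, pandas 2.3.3, numpy 2.4.6 and matplotlib 3.10.9 were used. Alternatives were other pseudocounts, filters, limits and loci, centring, removal of a length trend in 20 groups, and leaving out each time point. Depth is unknown from the tables, so no counting interval is given. A few genes are counted in the totals but not reported by name here.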

Additional observations from a re-analysis of the deposited data

How the results depend on the processing

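No paired analysis was possible because the tables hold 1 pooled value per group and none per library. The counts of genes past the limit at 2 h, 24 h and 7 d (3, 1 and 0) were 5, 2 and 2 with a pseudocount of 0.1 in place of 1 FPKM, 7, 4 and 8 at a limit of 0.2, and 1, 0 and 0 at a limit of 0.5. With only genes of a mean of at least 10 FPKM, a filter chosen after seeing the data, they were 0, 0 and 0, since the 4 genes concerned are all below that level. With the length trend taken out the count at 7 d was 1 (Syt2), and Syn3 at 2 h fell under the limit at 0.27; centring on the median of all rows left Syn3 at 0.29, and the cause of the shifts with pseudocount and length was not tested. The medians of the synaptic genes moved by less than their SD between time points (0.02) under every alternative run for them. That SD is about as large as the medians, so it is a loose measure. The 2 h median changed sign, from 0.0021 to -0.01 when centred and to -0.02 without the length trend. The 7 d median went from -0.03 to -0.0055 without that trend. The limma count stayed at 0 synaptic genes in all alternatives, with smallest adjusted p values of 0.484 to 0.948 and 3 to 6 genes at an unadjusted p under 0.05; without 2 h, 24 h or 7 d all-gene calls were 4, 7 and 3. With 1 pooled value per group, an unknown depth and the authors' test columns not used, differences of low genes such as Vamp5, Rab3d and Stxbp2 have no error of their own here.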
